A study of Homo sapiens with 3 samples.

Results

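The regions described here are the strong RNA contacts of RPL22L1 that lay far from any contact called for its paralog RPL22. They are the peaks of the RPL22L1-HaloTag library with a deposited score of 300 or more and no RPL22-HaloTag peak within 1000 bases, on chromosomes 1 to 22 and X. Peaks exactly 30 bases wide with the summit offset at 15, called flat here, were left out, and all other peaks are called shaped. The rule kept 5966 of the 254413 peaks in the RPL22L1 list, and 5966 of the 19068 strong shaped peaks. The regions were thus selected on 2 measured values, the score and the distance to the RPL22 list, and both are given only as descriptions.

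The study fused HaloTag, a protein tag that binds its ligand covalently, to RPL22 or to RPL22L1 in HCT116, a long-established line from a human colorectal carcinoma. RNA held by the fusions was sequenced by GoldCLIP, a crosslinking method in which covalent capture on beads permits denaturing washes without a gel. The labels give 3 genotypes with 1 library each: HaloTag alone, RPL22-HaloTag and RPL22L1-HaloTag. Cells with HaloTag alone were not analysed here, and no value has their background beside it. How the fusions were made, which promoter drives them and whether a line is 1 clone are not given in the sources used here.

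With 1 library per genotype there was no replicate check, and no difference between the proteins was tested. The 95% Clopper-Pearson intervals given with shares cover counting error only. The score was set by the authors for each library and was used only within a list. The number of reads behind either list is unknown, the lists hold 254413 RPL22L1 and 154000 RPL22 peaks, and the part that depth plays in the absence of an RPL22 peak was not tested. Shaped RPL22L1 peaks lay in 6 of 8 colon epithelium marker genes and in 0 of 6 marker genes of blood, stromal, endothelial and liver cells. For RPL22 the numbers were 6 of 8 and 2 of 6. Flat RPL22L1 peaks did lie in COL1A1 (6), PECAM1 (2) and ALB (1), which are among those 6 genes of other cell types. The colon markers KRT20 and LGALS4 had 0 peaks in both lists.

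RPL22 belongs to the large ribosomal subunit and also binds structured RNA outside the ribosome. RPL22L1 is its close paralog, can take its place in the ribosome, and has been linked to the splicing of pre-mRNA. Several kinds of RNA named below are folded and abundant. Small nucleolar RNAs (snoRNAs) guide chemical modification of other RNAs, small nuclear RNAs (snRNAs) build the spliceosome or hold back transcription factors, and miRNA hairpins are cut from longer transcripts by DROSHA and DICER1.

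The sequences of 8 miRNA hairpins follow because they show where on a known fold the far RPL22L1 peaks sat. They are RefSeq hairpins placed on GRCh38.p14, written 5′ to 3′, with the bases inside the peak in capitals and the remaining bases in lower case. The peak lists carry no strand, and the strand given is that of the miRNA gene.
MIR21, chr17:59841266-59841337, plus strand: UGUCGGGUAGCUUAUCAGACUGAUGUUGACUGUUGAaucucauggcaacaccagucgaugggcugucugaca
MIR20A, chr13:91351065-91351135, plus strand: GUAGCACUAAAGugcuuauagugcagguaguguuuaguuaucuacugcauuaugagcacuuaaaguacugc
MIR17, chr13:91350605-91350688, plus strand: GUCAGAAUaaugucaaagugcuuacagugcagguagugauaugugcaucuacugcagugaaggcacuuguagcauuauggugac
MIR16-1, chr13:50048973-50049061, minus strand: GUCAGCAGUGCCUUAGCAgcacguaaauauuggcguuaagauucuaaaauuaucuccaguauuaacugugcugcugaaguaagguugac
MIR29B2, chr1:207802443-207802523, minus strand: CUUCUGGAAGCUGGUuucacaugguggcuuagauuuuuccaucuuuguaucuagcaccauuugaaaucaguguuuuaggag
MIR148B, chr12:54337216-54337314, plus strand: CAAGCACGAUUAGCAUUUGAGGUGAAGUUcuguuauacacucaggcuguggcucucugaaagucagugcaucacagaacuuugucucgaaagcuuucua
MIRLET7E, chr19:51692786-51692864, plus strand: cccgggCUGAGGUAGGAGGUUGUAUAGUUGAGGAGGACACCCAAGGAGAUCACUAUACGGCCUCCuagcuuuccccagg
MIR125B1, chr11:122099757-122099844, minus strand: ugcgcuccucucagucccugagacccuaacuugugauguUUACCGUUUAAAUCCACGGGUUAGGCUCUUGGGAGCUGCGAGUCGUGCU

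In total 12 far RPL22L1 peaks overlapped 12 different hairpins of the 1558 in the RefSeq table used. That was 0.201% of the far peaks (0.104 to 0.351), against 0.147% of all 19068 strong shaped RPL22L1 peaks and 0.125% (0.0601 to 0.230) of those that overlapped an RPL22 peak, and the intervals overlapped. The highest score, 3897, was at MIR21, whose miRNA is abundant in many carcinomas. This peak, chr17:59841253-59841301, held the first 36 bases of the hairpin, and an RPL22 peak with a score of 7302 in its own list lay 1415 bases away. MIR20A (3129) and MIR17 (2146) belong to the MIR17HG cluster, and the nearest RPL22 peaks lay 6005 and 6469 bases away. MIR3064 (2472), which lies within DDX5, was the 1 hairpin that a far peak covered whole. The peak at MIR16-1, in the host transcript DLEU2, scored 1303, and that at MIR29B2 scored 758.

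The summit, the point the authors' list gives as the top of a peak, lay 5′ of the hairpin in 7 of the 12 pairs, inside it in 3 and 3′ of it in 2. In 8 of the 12 it lay between 12 bases before the first hairpin base and position 5, a window chosen after the values were seen. Counted from the first hairpin base as position 1, the summit stood at position -2 for MIR21, -10 for MIR20A, -11 for MIR17, -4 for MIR16-1, 0 for MIR29B2 and 5 for MIR148B. MIR125B1 had its summit at position 107, past the 3′ end of its 88-base hairpin, and MIRLET7E had it at position 36 near the loop. For the strong RPL22L1 peaks that overlapped an RPL22 peak, the same window held the summit in 2 of 10 pairs, and 4 of the 10 summits lay 5′ of the hairpin. Those pairs included MIR31, MIR301A and MIR10A. For strong RPL22L1 peaks within 1000 bases of an RPL22 peak without overlap, the window held the summit in 2 of 6 pairs. The numbers of pairs are small.

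**Figure D1:**
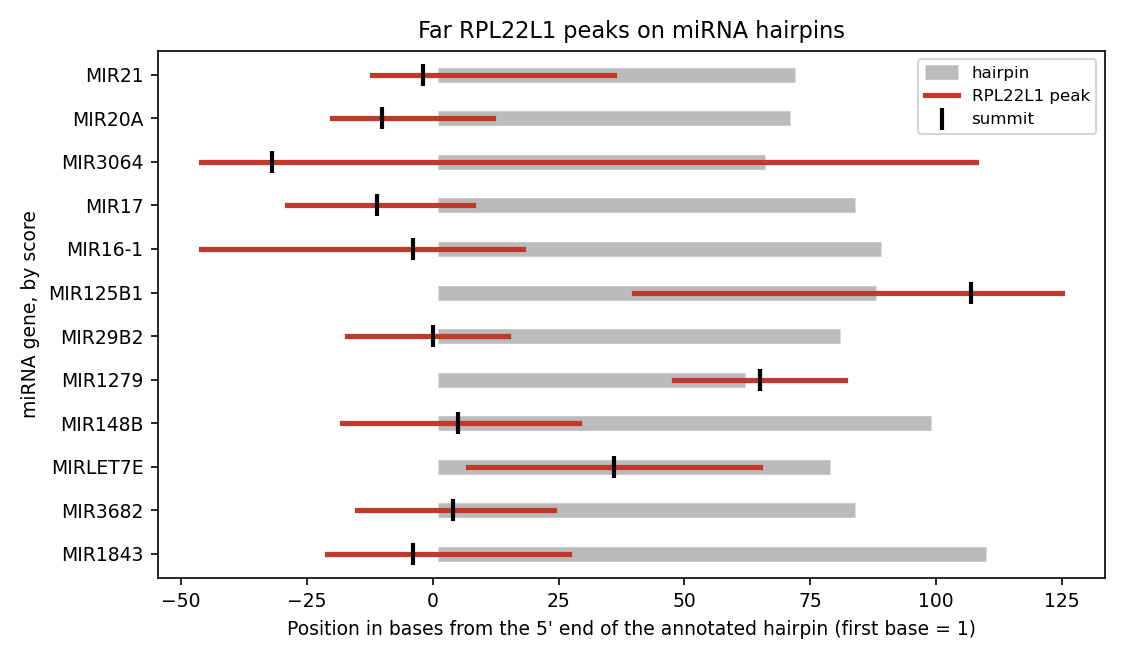
Position of the far RPL22L1 peaks on the 12 miRNA hairpins they overlap, in bases from the 5′ end of each hairpin, with genes ordered by score from MIR21 at 3897 to MIR1843 at 336. Grey bars are hairpins, red lines are peaks and black ticks are summits, of which 7 lie to the left of the hairpin.

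Mature miRNAs show which arm each peak reached, with the seed (bases 2 to 8) in capitals. The miR-17-5p and miR-20a-5p sequences share a seed, and at both loci the peak covered the base of the hairpin and little or none of the mature miRNA.
hsa-miR-21-5p: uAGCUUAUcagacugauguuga
hsa-miR-17-5p: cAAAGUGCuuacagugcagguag
hsa-miR-20a-5p: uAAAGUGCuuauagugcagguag
hsa-let-7e-5p: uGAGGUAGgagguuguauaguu
The MIR21 and MIRLET7E peaks held the whole of the mature 5p sequence, as the capitals of the hairpins show. The other hairpins of the 12 were MIR1279 (514), MIR3682 (355) and MIR1843 (336), and the last of these peaks has its summit in the scaRNA gene SCARNA3, where it is counted again below. By the gene table, 4 further miRNA genes held the summit of a far peak, MIR7-1 (2357), MIR4454 (2070), MIR10394 (446) and MIR320A (303). The count of 12 is over the 1558 hairpin sequences used, and these 4 genes stand beside it.

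Far peaks made up 31.3% of the strong shaped RPL22L1 peaks (30.6 to 32.0). A further 5115 peaks lay within 1000 bases of an RPL22 peak without touching it, called near peaks, and 7987, or 41.9%, overlapped one, called shared peaks. Of all 254172 RPL22L1 peaks on these chromosomes 54.3% were far, and of the 9563 flat peaks with a score of 300 or more 56.9% were. In the opposite direction, 291 of 3419 strong shaped RPL22 peaks, 8.51% (7.60 to 9.50), had no RPL22L1 peak within 1000 bases. The lists differ in length, so these shares are each tied to their own list.

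Most far peaks scored just above the limit. The quartiles of the score were 347, 428 and 591, and the highest was 3653287. At the limit, and with the other parts of the rule met, 18 peaks had a score of 299 and 20 had 298, against 28 at 300, 30 at 301 and 17 at 302. Distances to the nearest RPL22 peak had quartiles of 1638, 2741 and 5296 bases and reached 657392. The 100 bases just inside the distance limit, from 901 to 1000, held 300 peaks and the 100 bases beyond it held 287. Only 1602 far peaks (26.9%) lay more than 5000 bases away and 66 (1.11%) more than 100000.

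The share of far peaks fell from 35.8% (34.6 to 36.9) at scores from 300 to below 400 to 26.0% (24.5 to 27.4) from 600 to below 1000, and stood at 31.5% (25.5 to 38.1) at 10000 or more. The near share fell over the same range, with 2261 of 6995 peaks in the lowest band and 13 of 222 in the highest. Shared peaks rose from 31.9% to 62.6%. The median width was 45 bases for far peaks, 46 for near peaks and 58 for shared peaks, a set that favours wide peaks since it is defined by overlap.

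**Figure D2:**
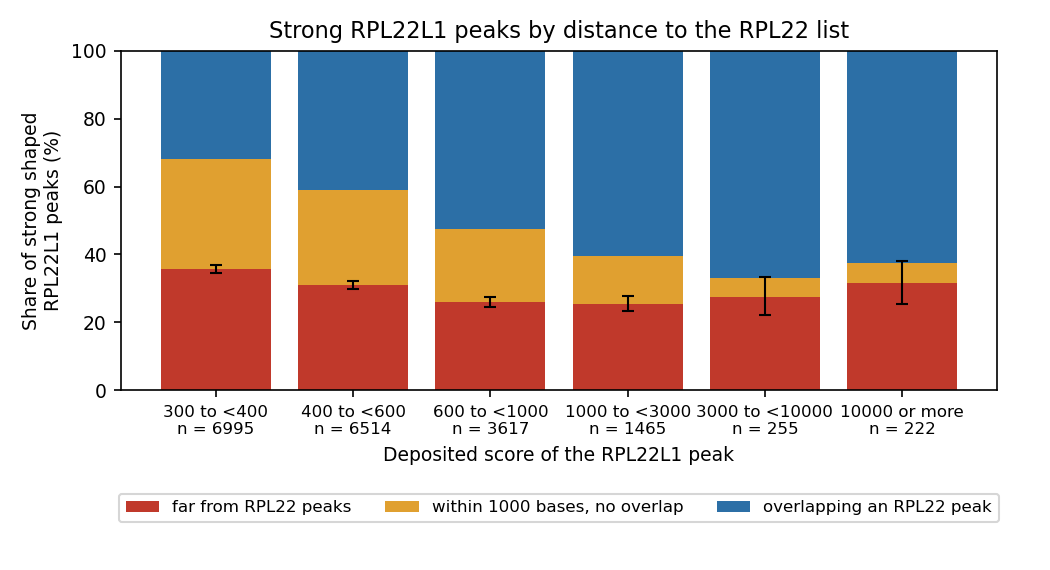
Share of strong shaped RPL22L1 peaks (%) that are far from, near to or overlapping an RPL22 peak, by band of deposited score, with the number of peaks under each bar and the 95% interval of the far share. The far share is 35.8% in the lowest band and 31.5% in the highest.

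By the shortest gene holding the summit, 4946 far peaks, 82.9% (81.9 to 83.9), lay in protein-coding genes. The median length of those genes, counted per peak, was 63.6 kb, against 59.4 kb for near and 57.0 kb for shared peaks. Long non-coding RNA genes held 7.17% (6.53 to 7.86), sequence outside annotated genes 6.12% (5.52 to 6.76) and pseudogenes 2.43% (2.05 to 2.85). Shared peaks lay in protein-coding genes in 87.6% of cases (86.9 to 88.3), in long non-coding RNA genes in 4.31% (3.87 to 4.78), outside genes in 4.07% (3.65 to 4.53) and in pseudogenes in 1.79% (1.51 to 2.11). The intervals of far and shared peaks were apart for the first of these classes, for long non-coding RNA genes and outside genes, and overlapped slightly for pseudogenes. Near peaks lay in protein-coding genes in 89.4% of cases, in long non-coding RNA genes in 5.59% and outside genes in 3.25%. Of the 291 strong shaped RPL22 peaks with no RPL22L1 peak within 1000 bases, 65.3% lay in protein-coding genes. A further 15.8% lay outside genes, 10.3% in pseudogenes and 5.84% in long non-coding RNA genes. Low protein-coding and high outside-gene shares were thus not particular to far RPL22L1 peaks. Intron and exon were not told apart here, since the gene table used holds no exons.

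The makeup differed with the score. At a score of 10000 or more, 40 of 70 far peaks, or 57.1% (44.7 to 68.9), lay in snoRNA, small Cajal body RNA (scaRNA), snRNA, tRNA or Y RNA genes. Among the 139 shared peaks of that strength 45.3% (36.9 to 54.0) did, and the intervals overlapped. Sequence outside genes held 5 of the 70 far peaks, or 7.14% (2.36 to 15.9), and 41 of the 139 shared ones, or 29.5% (22.1 to 37.8). Below 1000 the order was the other way: 5.56% of far peaks lay outside genes, against 2.31% of shared peaks.

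**Figure D3:**
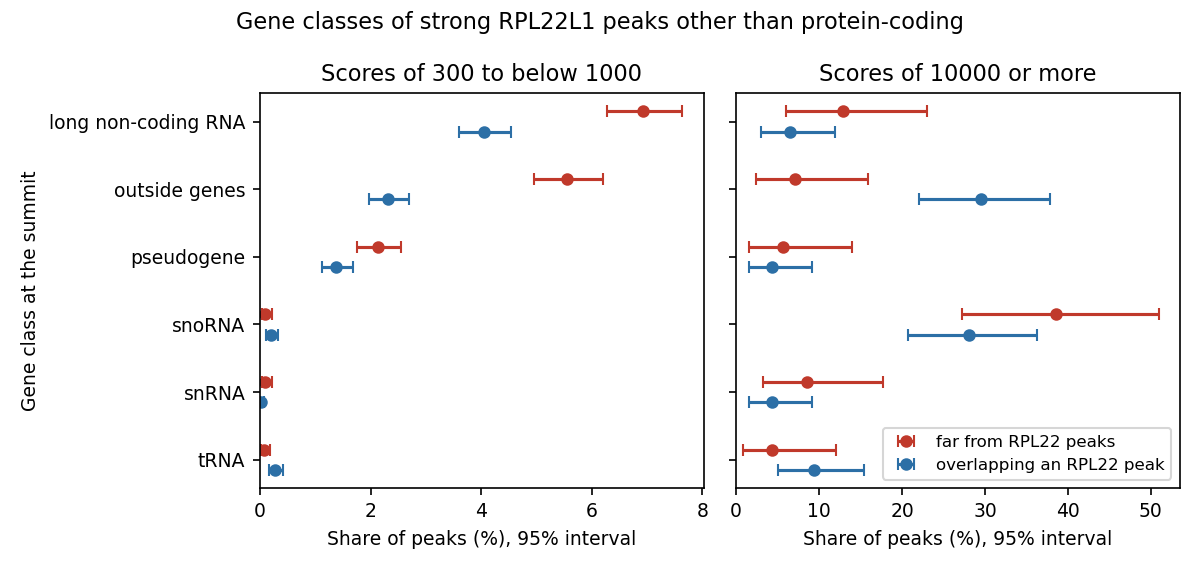
Share of peaks (%) by gene class at the summit, with 95% intervals, for far (red) and shared (blue) RPL22L1 peaks at scores of 300 to below 1000 and of 10000 or more; protein-coding genes are left out, and the horizontal scales of the panels differ. Outside genes, far peaks are above shared peaks in the left panel (5.56% and 2.31%) and below them in the right panel (7.14% and 29.5%).

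Small structured RNA genes held 74 far peaks, each in a gene of its own. That was 1.24% of far peaks (0.975 to 1.55), a lower share than the 2.07% (1.77 to 2.40) of shared peaks. It was a higher share than the 0.411% (0.254 to 0.627) of near peaks. They comprised 43 snoRNAs, 6 scaRNAs, 13 snRNAs, 10 tRNAs and 2 Y RNAs, with scores from 304 to 3653287. The highest far peak in the list, 3653287, lay at the higher-numbered end of SNORA81 (chr3:186786813-186786850), an H/ACA box snoRNA within the translation factor gene EIF4A2, and the nearest RPL22 peak was 15687 bases away with a score of 62. SNORA4, a second snoRNA of EIF4A2, scored 47335.

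RN7SK, the snRNA that holds the elongation factor P-TEFb inactive, had the next highest score, 2698026 (chr6:52995917-52995947). The nearest RPL22 peak lay 7110 bases away. The spliceosomal U5 genes RNU5A-1 (1852929), RNU5B-1 (823043) and RNU5F-1 (584799) and the U1 variant gene RNVU1-7 (597424) came next among snRNAs. These families have many near-identical copies, so the gene a read came from is uncertain. Elsewhere in the U5 family 11 RPL22 peaks were listed, the highest at 501266 in its own list, and 28 lay in the U1 family. RN7SK pseudogenes held 69 RPL22 peaks, the highest at 4209. Across all small RNAs, 23 of the 74 far peaks, 10 of them in snRNAs, had an RPL22 peak at another copy of the family.

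Box C/D snoRNAs, which guide 2′-O-methylation, gave SNORD79 (748674), SNORD101 (484454), SNORD18B (465440) and SNORD58C (384876), and their hosts were GAS5, RPS12, RPL4 and RPL17. SNORD79 lay only 1252 bases from an RPL22 peak that scored 12787. SNORD81, also in GAS5, scored 167646. Of the 43 snoRNAs, 41 lay within a host gene. By symbol, 23 were box C/D and 15 were H/ACA, the class that guides pseudouridylation, and 5 had another symbol. The H/ACA share was 34.9% (21.0 to 50.9) here and 56.6% (44.7 to 67.9) of the 76 snoRNA peaks shared with RPL22, and the intervals overlapped. SNORA8 (287728), within TAF1D, stood just past the distance limit, with an RPL22 peak of 46796 at 1052 bases.

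Arginine tRNAs made up 6 of the 10 far tRNA peaks, or 60.0% (26.2 to 87.8). They were 2 of the 4 near tRNA peaks and 6 of the 71 shared tRNA peaks, or 8.45% (3.16 to 17.5), and are 26 of the 443 annotated tRNA genes. This grouping was made after the values were seen. TRR-TCG1-1 (165330), TRR-TCG2-1 (25892) and TRR-TCG4-1 (18328) led, with nearest RPL22 peaks 5971, 7379 and 5699 bases away. tRNA genes of 1 type are nearly identical, and 6 of the 10 had an RPL22 peak at another copy. The far tRNA share was 0.168% (0.0804 to 0.308) of far peaks, against 0.889% of shared peaks and 0.0782% (0.0213 to 0.200) of near peaks. One far tRNA peak, in the asparagine tRNA gene TRN-GTT4-1 (768), lies in the start window of the neighbouring gene LOC105376805 in the RefSeq table, which shows its sequence. The window is written for the minus strand of that gene and was turned here to the plus strand of GRCh38.p14, at chr1:16889721-16889751, with the peak in capitals and 10 bases on each side. The gene table used gives no strand for the tRNA.
Peak in TRN-GTT4-1: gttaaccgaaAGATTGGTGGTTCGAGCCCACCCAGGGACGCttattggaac

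Summits in these small genes lay close to a gene end. The median distance from the summit to the nearer end was 18 bases (quartiles 12 and 26), and 54 of 74 (73.0%, 61.4 to 82.6) lay within 25 bases, where 47.0% of the bases of these genes lie. Shared peaks had a median of 15 bases, and 80.6% (73.7 to 86.3) lay within 25 bases, where 53.9% of the bases of their genes lie. Far and shared peaks on small RNAs thus both lay near a gene end.

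Among long RNAs, MALAT1 carried the cluster with the most far peaks. MALAT1 is an abundant RNA of nuclear speckles, and its antisense gene TALAM1 also holds all of the summits, so that strandless peaks cannot be given to either. All 16 far peaks of the gene formed 1 cluster (chr11:65499244-65503196) with scores from 992 to 65847 and a median of 7267.5. MALAT1 had 23 RPL22L1 peaks in all and 2 RPL22 peaks, the higher scoring 11799. Every far peak there lay between 1488 and 5355 bases from that RPL22 peak, and 2 of the 16 lay more than 5000 bases from it. RPL22L1 peaks ran along most of the body of MALAT1, and both RPL22 peaks stood toward its higher-numbered end. RPL22L1 summits stood at the same positions as both RPL22 summits, with scores of 90689, the highest in the gene, and 19163. The rule leaves such peaks out of the far set.

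NEAT1, the RNA scaffold of paraspeckles and a neighbour of MALAT1, had 11 far peaks with scores from 305 to 4830. They lay 4525 to 12253 bases from the nearest RPL22 peak. The gene held 37 RPL22L1 peaks and 3 RPL22 peaks, of which the highest scored 5077. The strongest far peaks of NEAT1 lay toward its lower-numbered end and the RPL22 peaks toward the other end. The rule itself keeps far peaks away from RPL22 peaks, so this layout shows no difference between the proteins. RPL22L1 peaks outside the far set also stood at the RPL22 end. Their summits at 20368 and 22721 bases from the lower-numbered end scored 433 and 1101. RPL22 summits stood beside them at 20374 and 22722 bases.

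**Figure D4:**
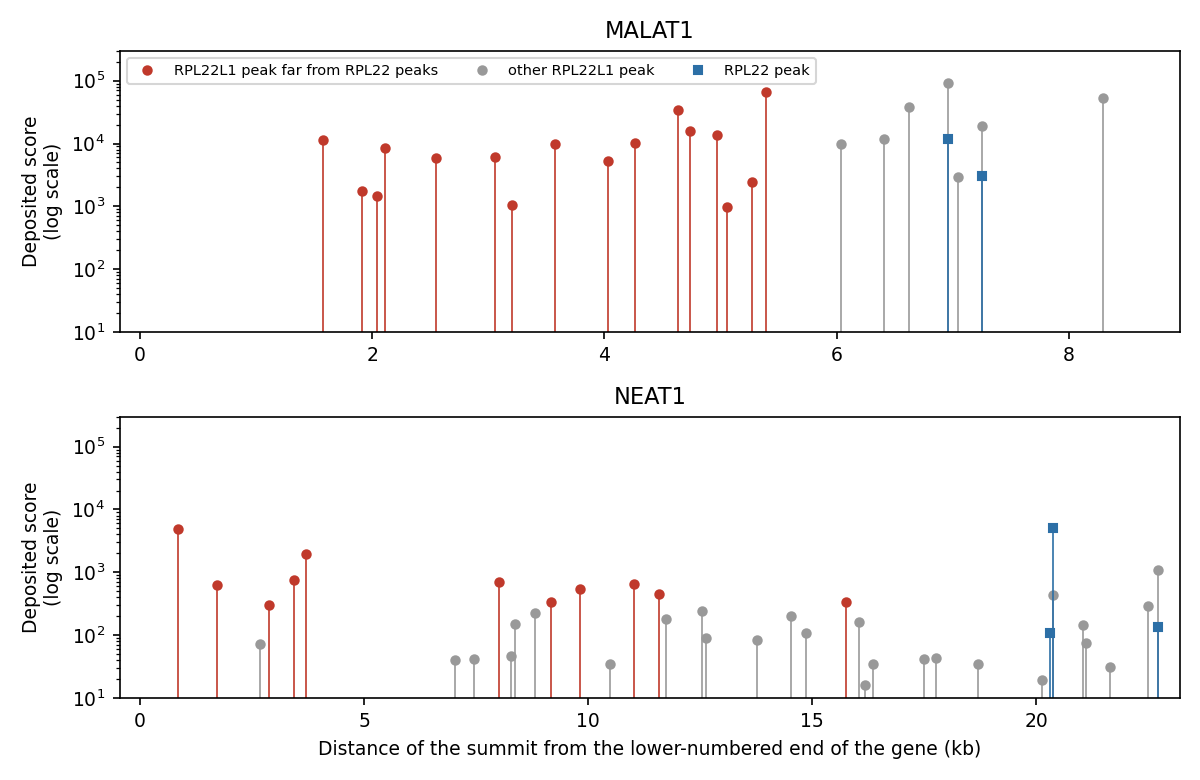
Deposited scores (log scale) of peaks in MALAT1 and NEAT1 against the distance of the summit from the lower-numbered end of each gene in kb; scores of the 2 lists are on separate scales and are not to be compared. Red points are far RPL22L1 peaks (16 and 11), grey points other RPL22L1 peaks and blue squares RPL22 peaks (2 and 3).

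Far peaks were spread over 3610 genes, of which 2472 held 1, 711 held 2 and 427 held 3 or more. Protein-coding genes with at least 1 were 3085 of 19970, or 15.4%, and 50.9% of the 6065 with any strong shaped RPL22L1 peak. ITPRID2, which encodes an actin-associated protein, held 16 far peaks with scores from 328 to 3664, among 55 RPL22L1 and 6 RPL22 peaks. Of these, 5 lay within 1 stretch, chr2:181929843-181930598, next to the upper-numbered end of the gene. MIR100HG, host transcript of MIR125B1, held 14 with scores from 314 to 1531. ARHGAP29, a GTPase-activating protein, held 12 (302 to 1419), and OGA, the enzyme that removes O-GlcNAc, held 11 (301 to 3351).

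Other genes high in this order were long and held many peaks of both lists. The cytoskeletal linker DST had 11 far peaks among 473 RPL22L1 and 144 RPL22 peaks, and none of the 11 scored above 637. PRKACB, a catalytic subunit of protein kinase A, FAT1, an atypical cadherin, and KITLG, the ligand of KIT, had 10 each. MBNL1, a splicing regulator, CAMK2D, TBC1D19 and DROSHA, the nuclease that cuts primary miRNAs, had 8 each, and the RNA-binding protein IGF2BP3 had 7. The scores in DROSHA ran from 301 to 865, and its 76 RPL22L1 peaks stood beside 31 RPL22 peaks.

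**Figure D5:**
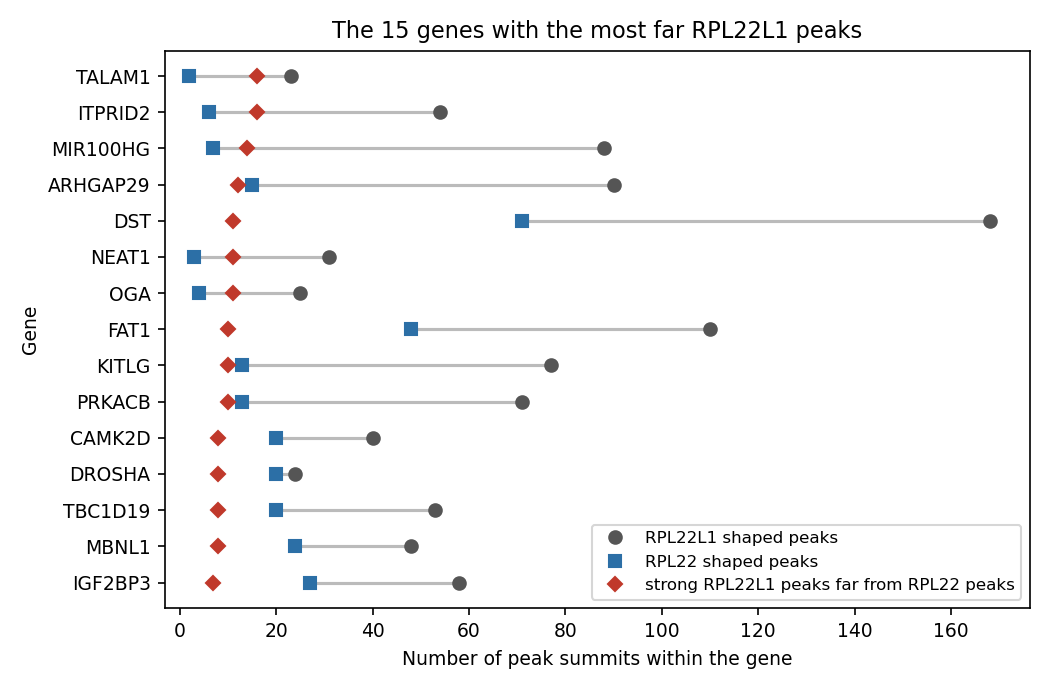
Number of shaped RPL22L1 peaks (grey circles), shaped RPL22 peaks (blue squares) and far RPL22L1 peaks (red diamonds) with the summit in each of the 15 genes that hold the most far peaks; TALAM1 stands for the region it shares with MALAT1. DST has 168 shaped RPL22L1 and 71 shaped RPL22 peaks, MALAT1 with TALAM1 23 and 2.

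Far peaks also formed clusters. Of the 5966, 742 (12.4%) lay within 1000 bases of another, in 329 clusters. Besides MALAT1 and ITPRID2, clusters of 5 or more lay in MAT2A (7 peaks, scores 411 to 2097), SAT1 (6, 663 to 5420), DDX5 (6, 348 to 2472), SLC38A2 (5, 346 to 1648) and DUSP6 (5, 431 to 1409). MAT2A makes S-adenosylmethionine, SAT1 acetylates polyamines, DDX5 is an RNA helicase, SLC38A2 carries neutral amino acids and DUSP6 is a phosphatase of ERK. The DDX5 cluster, chr17:64500593-64502484, includes the peak that covers MIR3064.

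In most genes with a far peak, RPL22 peaks were listed elsewhere in the gene. Only 72 of the 3085 protein-coding genes with a far peak (2.33%, 1.83 to 2.93) had no RPL22 peak within their bounds. These were short, with a median length of 7.73 kb against 57.6 kb for all 3085. Among long non-coding RNA genes 80 of 305 (26.2%) had none, and among pseudogenes 103 of 138 (74.6%). The share without an RPL22 peak among all genes of each class was not computed. These shares therefore cannot be read as a trait of genes with far peaks, and the part that gene length plays was not tested. Of the 72 protein-coding genes without an RPL22 peak, 7 held 3 or more far peaks. PDP1, a phosphatase that activates pyruvate dehydrogenase, led with 7 (343 to 1946), followed by SAT1 with 6 and NPM1, a nucleolar chaperone of ribosome assembly, with 5 (346 to 1421).

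HMGN1, a nucleosome-binding protein, held 4 far peaks (331 to 1188), with the nearest RPL22 peak at least 21730 bases away. The secreted Wnt inhibitor DKK1 held 3 (948 to 6362), the mitochondrial chaperonin HSPD1 3 (512 to 3843) and the splicing regulator HNRNPA1 3 (1300 to 1613). NPM1 had 32 RPL22L1 peaks in all and 0 RPL22 peaks. MDM4, which holds back p53 and whose splicing has been linked to RPL22, had 2 far peaks with scores of 936 and 324, and 9 RPL22 peaks, the highest at 1046 in its own list. RPL22 and RPL22L1 themselves held 0 far peaks. In RPL22L1 all 3 RPL22L1 peaks overlapped an RPL22 peak, the highest at 3700.

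Genes for RNA-binding and folding proteins held far peaks at shares to be read beside 15.4% of all protein-coding genes and 50.9% of those with a strong shaped RPL22L1 peak. Of 40 hnRNP and SR protein genes, which shape splicing, 24 (60.0%) held at least 1, or 77.4% of the 31 with a strong shaped peak. HNRNPA3 (312 to 1461), SRSF1 (377 to 2616) and TRA2B (326 to 507) held 4 far peaks each, with 0, 2 and 3 shared peaks. Chaperone genes held at least 1 in 14 of 19 (73.7%), or 87.5% of 16. They were led by HSP90B1 with 6 (316 to 2262) and by HSP90AA1 (344 to 2532) and HSPA4 (305 to 857) with 4 each. HSP90B1, HSP90AA1 and HSPA4 held 4, 2 and 1 shared peaks. In the same lists shared peaks lay in 23 of 40 hnRNP and SR genes (57.5%) and 13 of 19 chaperone genes (68.4%). Far and shared peaks thus lay in similar shares of these genes. The share of all protein-coding genes with a shared peak was not computed.

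Cytosolic ribosomal protein genes held far peaks in 24 of 87 (27.6%), or 51.1% of the 47 with a strong shaped peak. RPS24 held 3 (332 to 2683), RPL26 3 (379 to 2080) and RPL34 2 (1403 and 1868). Translation factor genes did so in 24 of 69 (34.8%, 54.5% of 44), with EIF2S3 and EIF3H at 5 each and EIF4B at 4. Spliceosomal protein genes, at 5 of 28 (29.4% of 17), and ribosome biogenesis genes, at 5 of 20 (35.7% of 14), lay below the 50.9%. High mobility group genes, at 4 of 10 (57.1% of 7), lay above it, HMGA2 leading with 9 peaks within its bounds. Genes of the p53 pathway had 4 of 15, or 4 of the 10 with a strong shaped peak, below the 50.9%. MDM2 led them with 4 far peaks (306 to 743). Both of these lists are short.

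Histone genes held far peaks in 8 of 89 (8.99%), or 26.7% of the 30 with a strong shaped peak. These genes are short, with a median length of 0.51 kb, and lie in near-identical copies. H4C2 held 1 far peak of 18515 at its lower-numbered end (chr6:26026894-26026924), with the nearest RPL22 peak 17221 bases away. H2BC5 held 2, of 1987 and 394, and H3C2 held 1 of 733.

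Along protein-coding genes with a known strand, which took in 4134 far peaks, 18.4% (17.2 to 19.6) of summits lay in the last 10% of the gene's length and 7.11% (6.35 to 7.94) in the first 10%. The last 10% held 16.4% (15.5 to 17.4) of shared peaks and 23.5% (22.1 to 24.8) of near peaks. Far peaks reached a start window, from 250 bases before to 50 after an annotated start, by at least 20 bases in 31 cases, or 0.520% (0.353 to 0.737), against 80 of the 7987 shared peaks (interval 0.795 to 1.25%). The highest of these were at the starts of RPL38 (2918) and ITGB1 (1155). Next came a peak in the start window of LOC105374852, with its summit in the U2 snRNA copy RNU2-63P (892). A peak with its summit in RPL27 (847) lay in the start window of LOC124904006.

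Some strong far peaks lay outside annotated small RNA genes. LOC102724250, annotated as protein-coding on chromosome 1, held a peak of 606462, and an intergenic peak at chr2:166743626-166743656 scored 351967 with the nearest RPL22 peak 115155 bases away. The peak in LOC102724250 was the only RPL22L1 peak within the 62.2 kb of that gene. Whether its reads came from this gene or from similar sequence elsewhere was not tested. ZNF536 (186777) and GPD2 (90380) held the next highest in protein-coding genes. Of the 145 far peaks in pseudogenes, 58 lay in copies of small RNAs and 11 in copies of ribosomal protein genes. RNU5A-8P (67970), RNY1P13 (64854) and LOC124906192 (58757) were the highest.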

How the data were processed

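The lists of both fusion libraries were used as the authors deposited them, 1 list per library, with 10 columns and no header. The deposited score is a whole number per peak with a lowest value of 13; its scale is not stated, and peak names with qpois make a scaled −log10 q-value likely, which is an inference. The other deposited value used, the summit offset, is in bases. Per the submitters' processing notes, cutadapt 4.8, STAR 2.7.10a, UMI-tools 1.1.5 and MACS3 3.0.0a6 were used on hg38; settings and any control are not given in the sources used here. Read depth is unknown.

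Distances were counted between peak edges in Python 3.11.15 with pandas 2.3.3, and intervals were exact (scipy 1.17.1). Each summit was given to the shortest RefSeq gene of GRCh38.p14 that holds it (59788 genes). The interval code was tested on peaks from part of the RPL22L1 list, with 100 planted neighbours added to the RPL22 peaks, and 0 of 300 distances were wrong. Members and lists were chosen with earlier results of these data known. Named genes are the 15 with most members, those of the 20 highest members, the 3 highest in each class, the 3 with most members in each list, and a fixed set of 10; others were chosen after their values were seen. Exon shares and G+C content of members were not computed, since neither exons nor a genome were used here.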

Additional observations from a re-analysis of the deposited data

Results flagged for a closer look

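On sequences other than chromosomes 1 to 22 and X, which the comparisons above do not use, 13 of 47 strong shaped RPL22L1 peaks had no RPL22 peak within 1000 bases. That share, 27.7% (15.6 to 42.6), has an interval that takes in the 31.3% on those chromosomes. Of the 13, 4 lay on the mitochondrial genome with scores from 1789 to 1531025, 3 on a sequence called chrR, which the sources used here do not explain, with scores from 319 to 8736, and 6 on unplaced or alternate sequences with scores from 303 to 940. They are outside the set described above.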

How the results depend on the processing

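The number of far peaks follows the rule: it was 1452 at a score of 600 or more, 1602 at a distance of 5000 bases, 11081 where only an overlapping base counted, and 11411 with flat peaks kept; it stayed within 1.5 times the reported number with peaks within 100 bases merged (5868) or only shaped RPL22 peaks as neighbours (7703). Of 41 alternative values, 31 moved beyond their limit. At a score of 600 or more the shares were 75.2% protein-coding, 8.47% long non-coding, 7.71% outside genes, 3.79% pseudogene, 2.96% snoRNA and 0.551% tRNA. At 5000 bases they were, in the same order, 68.4%, 10.1%, 12.4%, 5.06%, 2.31% and 0.375%. With only an overlap counted, the first 5 were 85.9%, 6.44%, 4.79%, 1.85% and 0.514%, and with flat peaks kept 76.5%, 9.44%, 11.3%, 2.00% and 0.394%. With every gene holding the summit counted, protein-coding genes took 87.2% and long non-coding 9.05%. At scores from 300 to below 1000, an alternative chosen after seeing the data, the protein-coding share was 85.0%, snoRNA 0.0917% and tRNA 0.0734%. The alternatives for exon share and G+C content were not run. No paired analysis was possible because each genotype has 1 library. Depth is unknown, so a missing RPL22 peak is no measured absence of binding.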
